A study of Mus musculus with 10 samples.

Results

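The lysozyme genes Lyz1 and Lyz2, the colony-stimulating factor genes Csf1, Csf1r, Csf2ra and Csf2rb, and the lineage markers Adgre1 and Cd68 were followed across 3 groups of mouse macrophages. They were picked by gene symbol and are 8 of the 12535 genes in the expression table. Each of the 8 passed the filter on low values.

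RNA was sequenced from 10 libraries of cells sorted as positive for CD45, CD11b and F4/80, the surface markers of leukocytes, myeloid cells and macrophages. Resident macrophages came from the pancreas of healthy C57/BL6 WT mice (n = 4). Control TAM, tumour-associated macrophages, came from orthotopic pancreatic ductal adenocarcinoma (PDAC) of C57/BL6 Ahr fl/fl mice (n = 3), and cKO-labelled TAM from the same kind of tumour in C57/BL6 Ahr fl/fl Lys M mice (n = 3). The tumours had grown for 14 days after MT4 cells, an organoid line of the KPC mouse model, were placed in the pancreas. Both TAM groups carry the floxed Ahr allele and a tumour, and the resident group has neither. The Lys M driver puts Cre recombinase under the Lyz2 locus, which is active in monocytes, macrophages and neutrophils, so that Ahr, the aryl hydrocarbon receptor gene, is meant to be deleted in those cells. In the widely used LysM-Cre strain, Cre sits in the Lyz2 gene itself and disrupts that copy. The sources used here do not give the number of such copies in these mice, nor their age and sex.

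Lysozyme breaks the peptidoglycan of bacterial cell walls. The mouse has a pair of neighbouring genes for it, Lyz2 being the macrophage form and Lyz1 the form best known from Paneth cells of the gut. The cytokine CSF1 acts through the receptor tyrosine kinase CSF1R and keeps macrophages alive in most tissues. The cytokine GM-CSF, encoded by Csf2, signals through an alpha chain (Csf2ra) that binds the ligand and a beta chain (Csf2rb) that carries the kinase JAK2 and activates STAT5. Adgre1 encodes F4/80, the antigen used in the sort, and Cd68 a glycoprotein of macrophage lysosomes.

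The lysozyme coding sequences are printed because their likeness bears on how well reads of the genes can be told apart, and because these genes moved in opposite directions in cKO-labelled TAM. Lyz1 (ENSMUSG00000069515) lies on chromosome 10 at 117287797 to 117292868 and Lyz2 (ENSMUSG00000069516) at 117277331 to 117282321, both on the minus strand of GRCm38, with 5475 bases between them. Both are annotated as protein-coding, with 4 coding exons. Their coding sequences in GENCODE M21 are 444 bases each without the stop codon and differ at 22 bases. Bases 1 to 300 are shown, with capitals at the 20 differing bases among them.
Lyz1: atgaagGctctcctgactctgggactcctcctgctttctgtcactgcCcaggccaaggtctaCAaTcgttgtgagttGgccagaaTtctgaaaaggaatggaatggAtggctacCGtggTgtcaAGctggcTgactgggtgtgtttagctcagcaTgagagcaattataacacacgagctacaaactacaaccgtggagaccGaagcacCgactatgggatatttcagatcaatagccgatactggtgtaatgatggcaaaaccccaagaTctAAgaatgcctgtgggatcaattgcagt
Lyz2: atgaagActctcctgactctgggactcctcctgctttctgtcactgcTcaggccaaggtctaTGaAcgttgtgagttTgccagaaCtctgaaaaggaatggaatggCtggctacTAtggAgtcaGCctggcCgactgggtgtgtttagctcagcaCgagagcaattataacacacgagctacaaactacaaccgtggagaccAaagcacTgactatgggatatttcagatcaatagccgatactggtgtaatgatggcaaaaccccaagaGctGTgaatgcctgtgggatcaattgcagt
The pair was identical at 422 of 444 coding bases (95.05%), and the longest identical run was 118 bases. Of the 50-base words in the whole Lyz1 transcript, 195 of 1214 (16.1%) also occurred in Lyz2, and 15.4% of the Lyz2 words occurred in Lyz1. Most words were thus particular to 1 gene, but a read from a shared stretch fits both, and the sources used here do not say how such reads were counted. A small part of the very abundant Lyz2 reads assigned to Lyz1 would weigh more on Lyz1 than the reverse, so the Lyz1 level in particular is uncertain.

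The upstream sequences show how far the genes differ outside the coding part. From RefSeq on GRCm38.p6, 200 bases of each were taken, ending 50 bases before the RefSeq start, on the minus strand, at chr10:117292919-117293118 for Lyz1 and chr10:117282323-117282522 for Lyz2. Capitals mark bases that differ or that face a gap when the windows are aligned.
Lyz1 upstream: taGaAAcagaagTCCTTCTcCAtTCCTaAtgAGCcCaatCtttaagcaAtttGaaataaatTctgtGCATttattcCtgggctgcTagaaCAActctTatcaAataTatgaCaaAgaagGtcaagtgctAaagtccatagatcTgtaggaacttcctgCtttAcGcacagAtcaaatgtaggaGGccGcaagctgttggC
Lyz2 upstream: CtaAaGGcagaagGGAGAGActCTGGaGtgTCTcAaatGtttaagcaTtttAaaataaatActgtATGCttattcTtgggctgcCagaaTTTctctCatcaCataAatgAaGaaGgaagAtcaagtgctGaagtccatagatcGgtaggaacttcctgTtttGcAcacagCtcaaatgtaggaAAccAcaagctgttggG
They were identical at 150 of 202 aligned positions (74.3%), with 48 mismatches and 4 gap positions. RefSeq windows of 250 bases before the start were found for 5 of the 8 genes (Lyz1, Lyz2, Csf1, Csf2ra and Cd68), and 5 motifs were searched in them on both strands (4 spelled out here, and the interferon-stimulated response element). The C/EBP motif TTGCNNAA occurred once in Lyz1, 209 bases before the start, and 0 times in Lyz2; it was found in 9.56% of all 32851 windows. Cd68 held 1 such motif, 2 copies of the AP-1 motif TGANTCA (6.75% of windows) and 1 of the PU.1 core GAGGAA (23.3% of windows), and Csf2ra held 2 of the PU.1 core. Neither the AhR core GCGTG (28.2% of windows) nor the interferon-stimulated response element (2.98%) was among the letters of the 5 windows, which says nothing of the factors. No match overlapped another motif's match.

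Levels are given in FPKM, fragments per kilobase of transcript with library size accounted for, which allows levels of different genes to be compared per length. Reads recovered from the low FPKM values gave a depth of 10312808 to 26454738 per library. Differences are in mean log2(FPKM + 1), fitted with limma over 11127 genes in all 10 libraries at once, and p-values are adjusted by the Benjamini-Hochberg method over those genes, with 0.05 as the threshold. Libraries of 1 group lay close together, with a noise of 1.81 to 3.34 times that of counting over the 12 same-group pairs. The labels do not tie libraries to single mice or cultures, so p-values measure only the spread between these libraries, which may be technical. All 10 macrophage markers of the label check were detected in every group. Markers of other cells were present too and differed between groups. Acinar enzyme genes summed to 19603 to 20628 FPKM in resident, 51.2 to 52.9 in control TAM and 207 to 213 in cKO-labelled libraries. In the same order, the monocyte genes summed to 123 to 134, 1278 to 1312 and 1097 to 1143 FPKM. Genes of large peritoneal macrophages summed to 619 to 630, 1586 to 1631 and 1446 to 1497 FPKM. Of these 7 genes, 6 rose and 1 fell (Timd4) from resident to control TAM, where 39.0% of all genes rose and 38.1% fell. Between the TAM groups 1 rose and 4 fell, and the part of such cells in the values of the 8 genes was not tested. Y-linked Eif2s3y was at 0.00534 FPKM on average in resident and at 0.958 and 1.00 in the TAM groups. X-linked Xist was present in all 3 groups, at 1.38, 1.21 and 0.980 FPKM in the same order. The part of sex in the results was not tested. Ahr itself was at 3.84, 4.46, 4.29 and 4.16 FPKM in resident, at 7.11, 6.91 and 7.51 in control TAM and at 10.2, 11.2 and 9.65 in cKO-labelled libraries. A gene-level FPKM also counts exons that Cre leaves in place and does not check the deletion, so the group is called by its label.

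From resident macrophages to control TAM, 3 of the 8 genes rose (Csf1, Csf2rb and Cd68) and 5 fell (Lyz1, Lyz2, Csf1r, Csf2ra and Adgre1). Most genes differed in this comparison, since 77.1% of all genes tested were called, 39.0% higher and 38.1% lower, so a call alone says little of these 8. When all libraries were brought to the same total FPKM, the median of all genes shifted by 0.18, and the higher genes made up 65.9% of the calls instead of 50.6%. The groups did not overlap for any of the 8, as for 73.9% of all genes. At least 2-fold changes were seen in 4 of the 8 (Lyz1, Csf1, Csf1r and Csf2rb), against 16.9% of all genes. The log2 change of Csf1r fell just short of 2-fold when rescaled to the same total (-0.998). The median difference of the 8 was -0.21, and that of all genes 0.00175.

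In cKO-labelled TAM against control TAM, 3 genes rose (Lyz1, Csf1 and Csf2ra), 4 fell (Lyz2, Csf1r, Csf2rb and Adgre1) and Cd68 did not pass the threshold. Here 39.6% of all genes were called, 20.5% higher and 19.1% lower. The higher genes made up 51.8% of the calls, and 32.9% when libraries were rescaled to a common total. The groups did not overlap for 7 of the 8, against 51.4% of all genes. Only Lyz1 changed by at least 2-fold, which 1.32% of all genes did. The medians were -0.08 for the 8 and 0.0125 for all genes.

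In cKO-labelled TAM against resident macrophages, 3 genes rose (Csf1, Csf2rb and Cd68), 4 fell (Lyz1, Lyz2, Csf1r and Adgre1) and Csf2ra did not pass the threshold. Of all genes 77.4% were called, 40.2% higher and 37.2% lower, and the same rescaling moved their median by 0.13. The groups did not overlap for 7 of the 8, as for 75.5% of all genes, and 4 of the 8 changed by at least 2-fold, against 15.1%. The median was -0.21 for the 8 and 0.0206 for all genes. Each group enters 2 of these comparisons, so their results are not independent of each other.

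**Figure D1:**
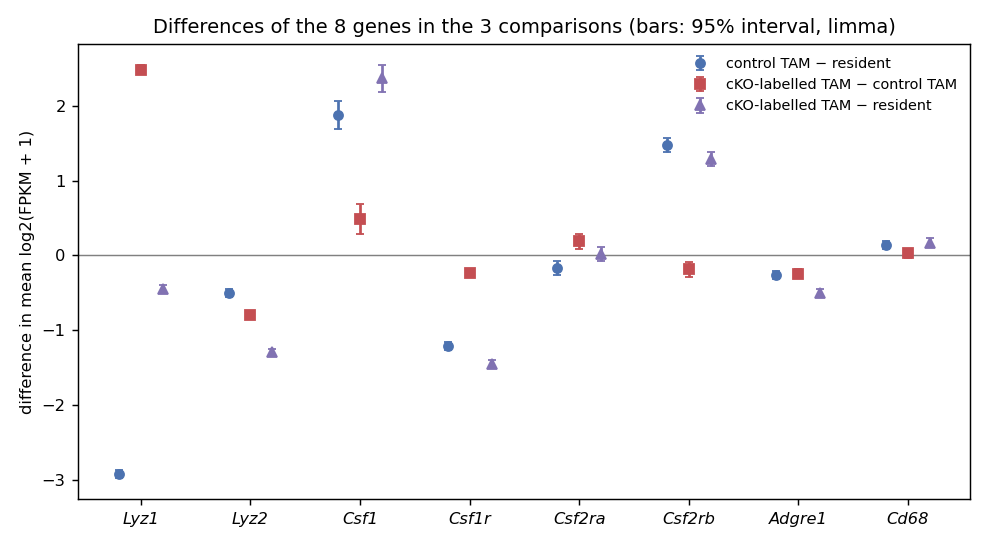
Differences of the 8 genes in mean log2(FPKM + 1), on the vertical axis, for the 3 comparisons, with bars for the 95% interval from limma. Lyz1 has the lowest point (-2.92, control TAM against resident) and the highest (2.48, cKO-labelled against control TAM), while Csf2ra and Cd68 lie near 0 in all 3.

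Lyz2 was the most abundant of the 8 genes in every group and was among the most abundant of all. Its level was 27682, 28465, 27784 and 28630 FPKM in resident macrophages, 19929.5, 19809.6 and 19974 in control TAM, and 11238, 11637 and 11505 in cKO-labelled TAM. The 3 groups were in separate ranges, highest in resident and lowest in cKO-labelled libraries. Among all genes of a library Lyz2 ranked 1 or 2 in the resident group, 1 in control and 4 in cKO-labelled TAM. It made up 5.08% to 5.37%, 4.30% to 4.34% and 2.33% to 2.37% of all FPKM in these groups. From resident to control TAM it fell by 0.50 ± 0.02 (SE; adjusted p = 1.05e-11), but quantile normalization, which gives the top-ranked gene the same value in every library, turned this to 0.073 (adjusted p = 0.227). From control to cKO-labelled TAM it fell by 0.80 ± 0.02 (adjusted p = 9.39e-13), and 63 of the 11127 genes fell more. Against resident macrophages the cKO-labelled libraries were lower by 1.30 on the log2 scale (-1.30 ± 0.02, adjusted p = 5.53e-17).

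Lyz1 followed another course. It stood at 1113, 1106, 1116 and 1119 FPKM in the resident libraries, at 144, 146 and 148 in control TAM, and at 796, 834 and 828 in cKO-labelled TAM. Control TAM was far below both other groups, and the cKO-labelled libraries were below the resident ones without overlap. Lyz1 ranked 54 to 55 among all genes in resident, 433 to 443 in control TAM and 57 to 61 in cKO-labelled libraries. It was 7.62-fold lower in control TAM than in resident macrophages (log2 change -2.92 ± 0.03, adjusted p = 4.46e-21), where 103 genes fell more. In cKO-labelled TAM it was 5.61-fold higher than in control TAM (log2 change 2.48 ± 0.03, 95% interval 2.42 to 2.54, adjusted p = 2.39e-18), and 9 of the 11127 genes rose more. Against resident macrophages the cKO-labelled libraries were lower (log2 change -0.44 ± 0.03, adjusted p = 1.69e-10; -0.17 after quantile normalization).

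The opposite steps of the pair changed its composition within each library, a measure that does not depend on how libraries are scaled. Lyz1 made up 3.87%, 3.74%, 3.86% and 3.76% of the summed lysozyme FPKM in resident, 0.720%, 0.731% and 0.734% in control TAM, and 6.61%, 6.69% and 6.71% in cKO-labelled libraries. The 3 groups did not overlap, and the share in cKO-labelled TAM was above that of resident macrophages as well. An exact two-sided permutation test over libraries gave p = 0.1 for cKO-labelled against control TAM (adjusted p = 0.1 over 6 tests), the smallest that 3 against 3 libraries allow. For either TAM group against resident, the exact permutation test gave p = 0.0571 (adjusted p = 0.0857), again the smallest possible. The summed lysozyme FPKM was 29254 ± 476 (SD, n = 4) in resident, 20051 ± 85.6 (n = 3) in control TAM and 12279 ± 223 (n = 3) in cKO-labelled TAM, so the rise of Lyz1 did not make up for the fall of Lyz2.

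A disrupted Lyz2 copy, if the mice carried one, and the loss of Ahr come with the same label, and for the lysozyme values they cannot be told apart. Genes around the pair were looked at after the lysozyme values had been seen. Of 12 other tested genes within 1 Mb, 1 rose and 1 fell in cKO-labelled against control TAM, where 39.6% of all genes were called. Their differences went from -0.26 (Nup107) to 0.38 (5330438D12Rik). Against resident macrophages, 6 rose and 4 fell in control TAM, where 77.1% of all genes were called. Here the differences went from -0.69 (Slc35e3) to 0.90 (Cct2).

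**Figure D2:**
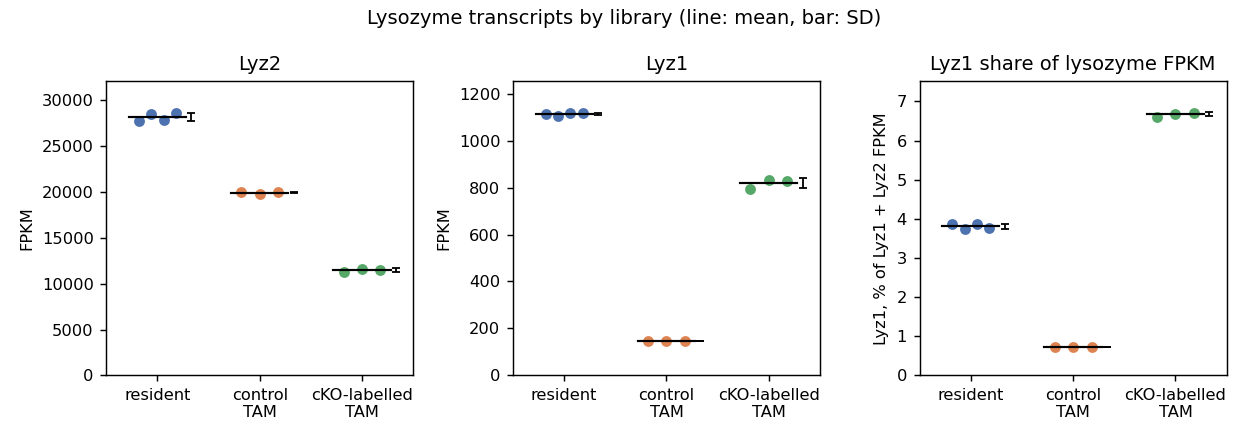
FPKM of Lyz2 and Lyz1 and the Lyz1 share of their summed FPKM (vertical axes, each from 0) in every library, by group; points are libraries, lines group means and bars 1 SD. Lyz2 steps down from resident to control to cKO-labelled TAM, while Lyz1 and its share are lowest in control TAM, the share at 0.720% to 0.734%.

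Other antibacterial and granule genes did not share the course of either lysozyme. Of 10 tested members of that list, 10 rose in control TAM against resident macrophages (median 2.30), where 39.0% of all genes rose. Both lysozyme genes fell there. In cKO-labelled against control TAM 3 rose and 6 fell (median -0.30), where 20.5% of all genes rose and 19.1% fell. Chil3, a chitinase-like protein gene, was at 2.35 ± 0.298, 399 ± 3.71 and 266 ± 3.56 FPKM in resident, control and cKO-labelled TAM. Nos2, the inducible nitric oxide synthase, was at 0.133, 30.8 and 11.4 FPKM, and Slpi, a secreted protease inhibitor, at 135, 1053 and 928. Ltf, the lactoferrin gene of neutrophil granules, went the way of Lyz1 in the tumour groups, at 4.46 ± 0.567 FPKM in control and 13.2 ± 1.70 in cKO-labelled TAM, but was nearly absent from resident libraries (0.185 FPKM).

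Neutrophils also hold lysozyme, so their markers are given beside it. The 11 neutrophil genes measured summed to 360 to 369 FPKM in resident, 1304 to 1330 in control and 1642 to 1803 in cKO-labelled libraries. Most of the TAM sums was Retnlg, at 0.332, 1166 and 1420 FPKM in the 3 groups. From control to cKO-labelled TAM 7 of 11 rose and 1 fell, where 20.5% of all genes rose and 19.1% fell. The gene that fell was Ngp (6.33 to 4.38 FPKM), and Camp, Mmp8 and Hdc did not pass the threshold. The granule gene S100a9 was at 0.0320, 25.4 and 57.0 FPKM and the receptor Cxcr2 at 0.0136, 1.59 and 5.46 in the 3 groups, both listed at 0 in at least 1 resident library. Most of the resident sum was Mmp9, a gelatinase gene at 329, 41.5 and 123 FPKM, which had the same order of groups as Lyz1 (log2 changes of -2.96 and then 1.55), and Csf3r was at 32.3 FPKM there. The B and plasma cell genes also had this order, with sums of 891 to 909, 85.5 to 94.5 and 238 to 242 FPKM. Of 5 tested, 5 fell from resident to control TAM and 3 rose from control to cKO-labelled TAM, and the immunoglobulin gene Ighm was at 854, 83.1 and 220.3 FPKM. The acinar genes, whose sums are given above, did so too, with 7 of 7 falling and then 7 of 7 rising. Dendritic cell markers had this order as well, with sums of 139 to 152, 19.9 to 20.9 and 46.2 to 47.5 FPKM. These sums were mostly Cd209a (118, 17.7 and 43.7 FPKM). Of 4 tested, 3 fell and then 2 rose, while Flt3 passed the threshold in neither step. Of all genes, 38.1% fell in the first of these steps and 20.5% rose in the second. The part of neutrophils, B and plasma cells, acinar cells and dendritic cells in the Lyz1 values was not tested.

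Csf1, the ligand gene (ENSMUSG00000014599, chromosome 3, 107741048 to 107760469, minus strand), was the least abundant of the 8 in every group. It was at 1.36, 1.41, 0.871 and 1.19 FPKM in resident, 6.96, 7.40 and 6.86 in control TAM, and 10.7, 10.7 and 9.61 in cKO-labelled libraries, which rest on 44 to 79, 313 to 430 and 740 to 1028 recovered reads. The groups were separate and rose in that order. Compared with resident macrophages, Csf1 was 5.85-fold higher in control TAM (log2 change 1.88 ± 0.09, adjusted p = 8.89e-12). The log2 change was 2.47 with a pseudocount of 0.1. It was 2.69 by voom on recovered reads, which adds less to low values and also scales to library totals. Csf1 was 1.46-fold higher in cKO-labelled than in control TAM (log2 change 0.49 ± 0.09, adjusted p = 0.000652). Against resident macrophages it was 8.55-fold higher there (log2 change 2.36 ± 0.09, adjusted p = 4.88e-13).

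Csf1r, the receptor of CSF1, went the other way. Its level was 1236, 1246, 1239.9 and 1230.3 FPKM in resident, 539.8, 537 and 526 in control TAM, and 462, 452 and 449 in cKO-labelled libraries. Again the 3 groups did not overlap, here in falling order. In bulk RNA, fewer cells that express a gene and less RNA per cell cannot be told apart. The fall from resident to control TAM was by 1.21 ± 0.02 on the log2 scale (adjusted p = 1.54e-16). Rescaling to a common total gave -0.998 for this step and quantile normalization -0.88, both short of 2-fold. From control to cKO-labelled TAM the fall was by 0.23 ± 0.03 (adjusted p = 4.53e-06), and quantile normalization gave -0.36. The ratio of Csf1 to Csf1r FPKM within a library was 0.000977 ± 0.000196 in resident, 0.0132 ± 0.000471 in control and 0.0227 ± 0.00122 in cKO-labelled TAM. Csf1r (ENSMUSG00000024621, chromosome 18, 61100598 to 61132149, plus strand) shares 824 of its 4652 50-base words with the overlapping gene Hmgxb3, whose own level was 4.30, 3.49 and 3.67 FPKM in the 3 groups.

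Fibroblasts and other stromal and epithelial cells are a known source of CSF1. Markers of these cells are given beside it. Fibroblast markers summed to 37.4 to 41.4 FPKM in resident, 164 to 167 in control TAM and 123 to 127 in cKO-labelled libraries, and endothelial markers to 2.77 to 3.37, 6.96 to 7.92 and 11.3 to 11.9. Epithelial markers summed to 8.44 to 10.0, 240.2 to 247 and 243 to 254 FPKM. Between the TAM groups 2 of 6 fibroblast genes rose and 2 fell, 2 of 2 endothelial genes rose, and 2 of 5 epithelial genes rose and 1 fell. Of all genes, 20.5% rose and 19.1% fell there. The part of fibroblasts, endothelial and epithelial cells in the Csf1 values was not tested. Il34, the other ligand of CSF1R, was at 0.106 ± 0.0743 FPKM in resident macrophages, 1.21 ± 0.0790 in control and 1.58 ± 0.228 in cKO-labelled TAM. It rose from resident to control TAM (log2 change 1.00, adjusted p = 2.00e-08), and the step between the TAM groups did not pass the threshold (0.22, adjusted p = 0.0592).

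Csf2ra, the alpha chain of the GM-CSF receptor (ENSMUSG00000059326, chromosome 19, 61223957 to 61228429, minus strand), differed little between the groups. It stood at 324, 288, 278 and 298 FPKM in resident, 252, 274 and 268 in control TAM, and 307, 302 and 293 in cKO-labelled libraries. Control TAM lay below both other groups, and those overlapped. On the scale as deposited it fell from resident to control TAM (log2 change -0.16 ± 0.05, adjusted p = 0.00375), but this turned to 0.048 (adjusted p = 0.279) when libraries were rescaled to a common total. It rose from control to cKO-labelled TAM (0.19 ± 0.05, adjusted p = 0.00655), a call lost when rescaled (0.11, adjusted p = 0.0572). Between cKO-labelled TAM and resident macrophages no difference passed the threshold (0.02, 95% interval -0.07 to 0.12, adjusted p = 0.661), while rescaling gave 0.16 (adjusted p = 0.00222) quantile normalization -0.12 (adjusted p = 0.0203) and median-of-ratios scaling -0.013 (adjusted p = 0.808). The direction for Csf2ra against resident macrophages therefore depends on the scaling. Between the TAM groups its change stayed positive under all 21 alternatives (0.11 to 0.21).

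Csf2rb (ENSMUSG00000071713) lies on chromosome 15 at 78325752 to 78353847, on the plus strand, and encodes the beta chain shared by the receptors for GM-CSF, IL-3 and IL-5. It was at 25.6, 22.2, 23.6 and 22.6 FPKM in resident, 66.0, 68.0 and 66.4 in control TAM, and 58.6, 59.0 and 58.1 in cKO-labelled libraries. The groups were separate, with the highest values in control TAM. Relative to resident macrophages it was 2.84-fold higher in control TAM (log2 change 1.47 ± 0.05, adjusted p = 4.36e-14) and 2.49-fold higher in cKO-labelled TAM (1.28 ± 0.05, adjusted p = 2.96e-13). Between the TAM groups it fell (log2 change -0.19 ± 0.05, adjusted p = 0.00627).

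The ratio of beta to alpha chain FPKM within a library was 0.0793 ± 0.00389 in the resident group, 0.253 ± 0.00837 in control and 0.195 ± 0.00371 in cKO-labelled TAM, without overlap between groups. The exact permutation tests gave the same values as for the lysozyme share, p = 0.1 (adjusted p = 0.1) between the TAM groups and p = 0.0571 (adjusted p = 0.0857) for each of them against resident. In each group the alpha chain mRNA was thus several times as abundant as the beta chain mRNA, per length. Csf2rb shares 18.4% of its 50-base words with other transcripts, nearly all with its neighbour Csf2rb2, a beta chain of the IL-3 receptor, so reads of this pair can be confused. Csf2rb2 was at 4.42 ± 0.311, 12.1 ± 0.788 and 16.0 ± 0.435 FPKM in the 3 groups. It rose from control to cKO-labelled TAM (log2 change 0.38, adjusted p = 0.000392), where Csf2rb fell. Their sum was 27.9 ± 1.35, 78.9 ± 1.83 and 74.6 ± 0.875 FPKM.

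**Figure D3:**
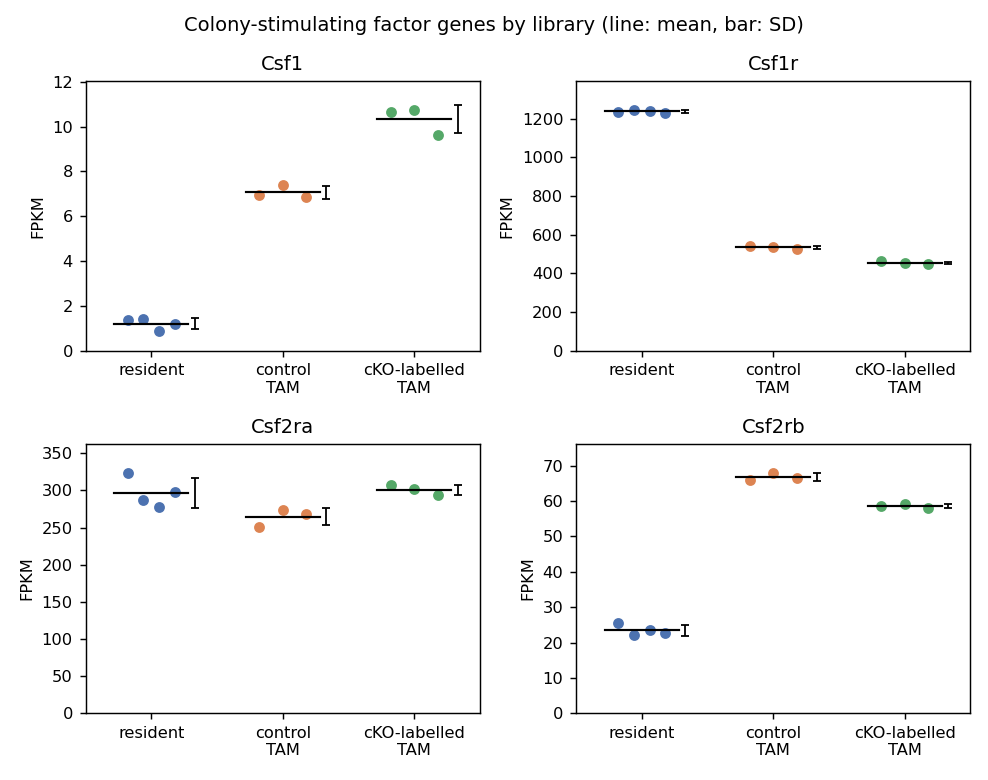
FPKM of Csf1, Csf1r, Csf2ra and Csf2rb (vertical axes, each from 0) in every library, by group; points are libraries, lines group means and bars 1 SD. Csf1 rises and Csf1r falls from resident to control to cKO-labelled TAM, Csf2rb is highest in control TAM (66.0 to 68.0), and Csf2ra keeps between 252 and 324.

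Of the other colony-stimulating factor and related receptor genes, 5 of 9 listed were measured (Il34, Csf3r, Il3ra, Il5ra and Csf2rb2), and Csf2, Csf3, Il3 and Il5 are not analysed here. In control TAM against resident macrophages 3 rose, 1 fell and 1 did not pass (median 1.00), where 39.0% of all genes rose. In cKO-labelled against control TAM 4 rose and 0 fell (median 0.34), where 20.5% of all genes rose. Il5ra, the alpha chain of the IL-5 receptor, was at 0.0511, 4.63 and 6.12 FPKM, with log2 changes of 2.42 and 0.34. Il3ra, the alpha chain of the IL-3 receptor, fell from 14.0 ± 2.22 to 6.06 ± 0.831 FPKM and was at 8.05 ± 0.0931 in cKO-labelled TAM. Csf3r, the G-CSF receptor, was at 32.3, 32.9 and 37.8 FPKM and rose between the TAM groups (0.19, adjusted p = 0.00373). Its step from resident to control TAM was 0.03 (adjusted p = 0.606).

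Il5ra also marks eosinophils. The 6 eosinophil genes in the table, Il5ra among them, summed to 185 to 194 FPKM in resident, 1457 to 1495 in control TAM and 1498 to 1521 in cKO-labelled libraries, mostly from Alox15 (137, 1389 and 1375 FPKM). Of the 6, 5 rose and 1 fell from resident to control TAM, the last being Ear2 (50.7 to 14.9 FPKM). Between the TAM groups 4 rose and 0 fell. Of all genes, 39.0% rose in the first of these steps and 20.5% in the second. The granule gene Prg2 was listed at 0 in all 4 resident libraries and stood at 34.4 and 35.0 FPKM in the TAM groups. Since eosinophils, neutrophils and monocytes also carry Csf2ra and Csf2rb, their part in the receptor values was not tested.

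Genes that GM-CSF and STAT5 induce were counted beside their receptor. Of 11 such targets, 9 rose and 1 fell in control TAM against resident macrophages (median 1.43), where 39.0% of all genes tested rose. In cKO-labelled against control TAM 6 rose and 0 fell (median 0.12), where 20.5% of all genes rose. Against resident macrophages 10 rose and 1 fell in cKO-labelled TAM (median 1.97), where 40.2% of all genes rose. The feedback inhibitor Socs1 was at 2.22 ± 0.461 FPKM in resident macrophages, 38.0 ± 2.14 in control and 45.8 ± 1.16 in cKO-labelled TAM (log2 changes of 3.61 and then 0.26). Cish, another inhibitor of the SOCS family, was at 0.298, 5.08 and 7.03 FPKM, with log2 changes of 2.23 and 0.40, and Socs2 at 0.506, 3.09 and 3.94. The integrin gene Itgax, which encodes CD11c, was at 0.888, 6.93 and 7.40 FPKM, and the kinase gene Pim1 at 1.502, 9.03 and 9.75.

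Of the 11 targets, the chemokine genes differed most between the TAM groups. Ccl17 was at 0.112 ± 0.0780 FPKM in resident macrophages, 1.80 ± 0.944 in control and 8.46 ± 1.34 in cKO-labelled TAM, a log2 change of 1.80 between the TAM groups (adjusted p = 8.58e-07). Ccl22 was at 0.574, 0.775 and 1.84 FPKM, and rose between the TAM groups (0.67, adjusted p = 1.79e-05). The 1 target that fell was Irf4, a transcription factor of the GM-CSF response that is named here after its values were seen. It fell from 5.79 to 1.32 FPKM in control TAM (log2 change -1.55) and was at 1.44 in cKO-labelled TAM. Dendritic cells also make these chemokines. The dendritic markers, mostly Cd209a, summed to 139 to 152, 19.9 to 20.9 and 46.2 to 47.5 FPKM in the 3 groups. The part of dendritic cells was not tested.

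**Figure D4:**
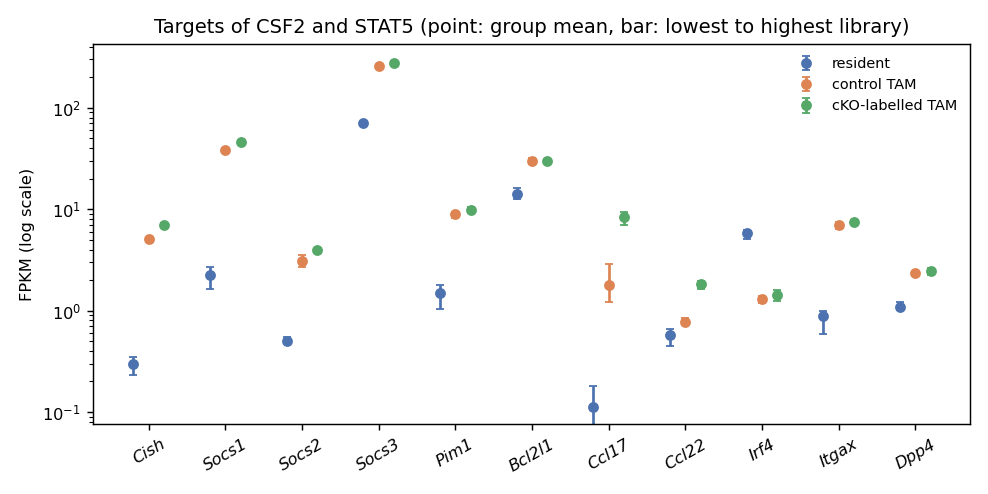
FPKM of the 11 GM-CSF and STAT5 targets on a log axis, with points for group means and bars from the lowest to the highest library. Most are lowest in resident macrophages, Irf4 is highest there (5.79), and Ccl17 differs most between the TAM groups; its lowest resident library was listed at 0 and lies off the axis.

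Of 21 tested signalling genes downstream of the receptors, 7 rose and 8 fell in control TAM against resident macrophages (median 0.03). This share called is close to the 77.1% of all genes. In cKO-labelled against control TAM 4 rose and 7 fell (median -0.00284), where 20.5% of all genes rose and 19.1% fell. Jak2, the kinase bound to the beta chain, was at 7.55, 13.9 and 13.5 FPKM in the 3 groups. Gab3, an adaptor of CSF1R signalling, was at 20.5, 8.57 and 11.2 FPKM, and Pik3cg, a phosphoinositide kinase, at 21.2, 9.13 and 7.68. Tyrobp, the DAP12 adaptor, rose from 2040 ± 81.0 in control to 2535 ± 95.1 FPKM in cKO-labelled TAM, by 0.31 on the log2 scale (adjusted p = 1.52e-05).

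Of 11 transcription factors of the macrophage lineage, several of which control Csf1r, 4 rose and 4 fell in control TAM against resident macrophages, again near the share over all genes. In cKO-labelled against control TAM 2 rose and 4 fell, where 20.5% of all genes rose and 19.1% fell. Maf, a factor of resident macrophages, was at 14.7, 4.57 and 6.001 FPKM. The C/EBP factor gene Cebpa was at 27.9, 14.2 and 15.2 FPKM, while Cebpb was at 555, 935 and 887 and Tfec at 3.01, 9.33 and 9.02.

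Adgre1 was at 685, 717, 715 and 707 FPKM in resident, 593, 589 and 588 in control TAM, and 497, 505 and 489.6 in cKO-labelled libraries. The groups did not overlap and fell in that order, although every library came from cells sorted on F4/80, the product of this gene. From resident to control TAM it fell by 0.26 ± 0.03 on the log2 scale (adjusted p = 1.55e-07), a call lost when rescaled (-0.046, adjusted p = 0.138) or quantile normalized (-0.018, adjusted p = 0.568). The fall from control to cKO-labelled TAM was by 0.25 ± 0.03 (adjusted p = 5.36e-06) and that from resident to cKO-labelled TAM by 0.50 ± 0.03 (adjusted p = 3.70e-11). Adgre1 (ENSMUSG00000004730) lies on chromosome 17 at 57358691 to 57483527 on the plus strand.

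Cd68 (ENSMUSG00000018774, chromosome 11, 69664213 to 69666153, minus strand) differed little between the tumour groups. It was at 960.4, 908, 907 and 905 FPKM in resident, 1005, 1024 and 1012 in control TAM, and 1042, 1044 and 1018 in cKO-labelled libraries. The resident libraries lay below all TAM libraries, and the TAM groups overlapped. It rose from resident to control TAM by 0.14 on the log2 scale (0.14 ± 0.03, adjusted p = 0.000204; 0.35 when rescaled) and was 0.17 ± 0.03 higher in cKO-labelled TAM than in resident macrophages (adjusted p = 3.11e-05; 0.30 when rescaled). The difference between the TAM groups did not pass the threshold (0.03, 95% interval -0.03 to 0.09, adjusted p = 0.439), but it did under quantile normalization (0.10, adjusted p = 0.00670), and it was -0.049 when rescaled (adjusted p = 0.123). The Adgre1 to Cd68 ratio within a library was 0.768 ± 0.0371 in resident, 0.582 ± 0.00782 in control and 0.481 ± 0.00331 in cKO-labelled TAM.

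**Figure D5:**
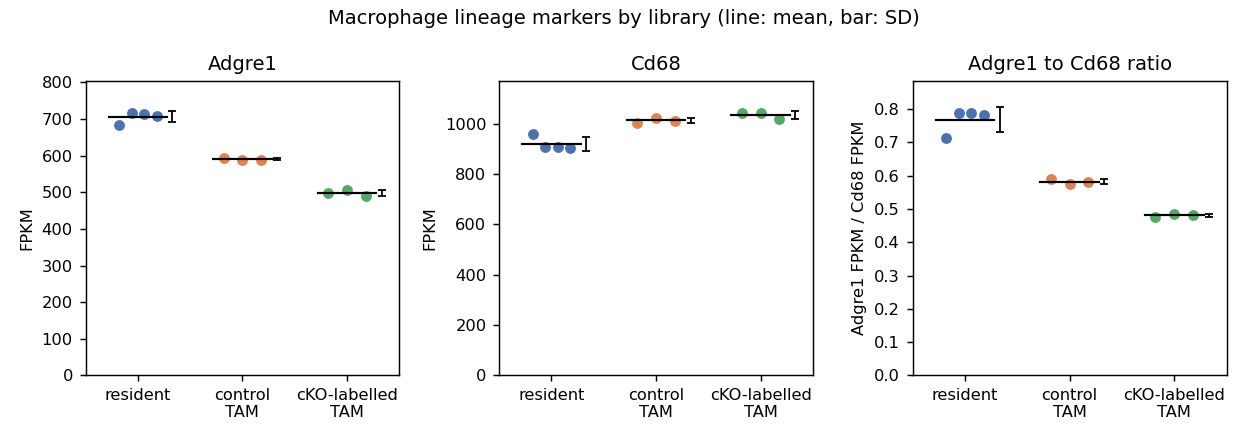
FPKM of Adgre1 and Cd68 and the ratio of the former to the latter (vertical axes, each from 0) in every library, by group; points are libraries, lines group means and bars 1 SD. Adgre1 and the ratio fall stepwise, while Cd68 stays between 905 and 1044 FPKM.

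Of 12 other macrophage surface and lysosome genes, 6 rose and 5 fell in control TAM against resident macrophages (median 0.11), where 77.1% of all genes were called. In cKO-labelled against control TAM 2 rose and 7 fell (median -0.15), where 39.6% of all genes were called. The other sort markers were Itgam, which encodes CD11b, at 31.4 ± 0.995, 75.9 ± 5.23 and 59.7 ± 3.32 FPKM in the 3 groups, and Ptprc, which encodes CD45, at 69.0 ± 3.31, 103 ± 3.18 and 84.2 ± 2.87. Both were highest in control TAM, unlike Adgre1. The mannose receptor gene Mrc1 was at 199, 25.5 and 32.5 FPKM, Fcgr1, the high-affinity IgG receptor, at 46.4, 119 and 124, and Mertk, a receptor for apoptotic cells, at 34.9, 24.3 and 17.3. The tetraspanin gene Cd63 fell from 213 to 144 FPKM and rose again to 205 in cKO-labelled TAM.

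Across the 8 genes the order of FPKM levels shifted between groups. In resident macrophages it was Lyz2, Csf1r, Lyz1, Cd68, Adgre1, Csf2ra, Csf2rb and Csf1, from high to low. In control TAM Lyz1 dropped below Csf2ra, and the order was Lyz2, Cd68, Adgre1, Csf1r, Csf2ra, Lyz1, Csf2rb and Csf1. In cKO-labelled TAM Lyz1 stood between Cd68 and Adgre1, and Csf1r was again below Adgre1. Neighbours in these orders did not overlap in their library values.

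For each gene, up to 3 others with the most similar course over the 10 libraries were sought among genes with a mean of at least 10 FPKM (5052 candidates, 5053 for Csf1). The measure was Pearson's r of log2(FPKM + 1), a description of 10 libraries in 3 groups, which share depth and scaling. Lyz1 was closest to Clec4b1 (r = 0.999), a C-type lectin gene at 140, 14.2 and 93.0 FPKM in the 3 groups, then Ms4a7 and Rab3il1. Lyz2 was closest to Axl (r = 0.996) and Pfkfb3, and Csf1r to C4b (r = 0.999), Ap2a2 and Colec12. Csf2rb was closest to Mif (r = 0.999), Tpi1 and Eno1, of which the last 2 are enzymes of glycolysis, and Csf1 to Nxpe5 (r = 0.997), Plk3 and Atp6v0e. Adgre1 was closest to Sgpl1 (r = 0.998), Scpep1 and Cpt1a, and Cd68 to Psmd4 (r = 0.991), H2-D1 and H2afx. Csf2ra had the loosest matches, with Mospd3 at r = 0.971, then Emc10 and Hagh.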

How the data were processed

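RNA-seq of 10 libraries of sorted mouse macrophages was used as FPKM values deposited by the authors in 1 table. RNA was extracted with either of 2 kits (which library had which is not given), amplified with SMART-Seq v4 and prepared with Nextera XT, a kit that does not mark strand, per the labels' protocols. Per the submitters' processing notes, builds mm10 and GRCm38 and the tools STAR and edgeR were used. Versions, gene lengths and scaling were not given in the sources used here.

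Libraries were grouped by their genotype and disease labels. Genes at 1 FPKM or more in at least 3 libraries were tested with limma 3.58.1 (R 4.3.3) on log2(FPKM + 1), with 3 group means, 7 residual degrees of freedom, a variance trend and Benjamini-Hochberg adjustment. This scale understates changes of low genes. Ratios within a library were tested by exact permutation. The script was tested on simulated data. Reads were recovered with the longest annotated transcript as length: 85.8% to 87.1% of values up to 200 reads came out whole within 0.05, so depth is exact only where lengths match. Coordinates come from GENCODE M21.

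The 8 genes and all lists were chosen with earlier results of these data known. Named besides them are the 4 members of each list with the largest called change per comparison, the 3 genes most similar to each of the 8 and, chosen after their values were seen, Ahr, Y-linked, neighbouring and cell type marker genes, and Hmgxb3. Some genes that this rule returns are not reported here. Alternatives were pseudocounts of 0.1 and 0.5, no filter or a filter at 5 FPKM, rescaling to a common total, quantile and median-of-ratios scaling, no variance trend, a fit of only the groups compared, the replicate number as a block, each library left out, a 2-fold limit and, added after seeing the data, voom on recovered reads.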

Additional observations from a re-analysis of the deposited data

Results flagged for a closer look

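In the resident group, Cd68 stood apart in 1 library. Replicate 1 was at 960.358 FPKM, while the other 3 resident libraries were between 904.55 and 908.463, so that the gap made up 0.930 of the whole range, above the critical value of Dixon's test for 4 samples. It was the only such value among 10 measures tested in that group. Chance alone gives such a value in about 1 of 20 measures, so 1 among these 10 is not unusual. Without this library Cd68 remained past the threshold when either TAM group was set against resident macrophages.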

How the results depend on the processing

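The 8 genes gave 24 differences, each recomputed under 21 alternatives (504 values). Of these, 491 kept their direction and their side of the threshold, 3 turned and were past the threshold in at least 1 of the fits, 4 were weaker and 3 stronger. In 3 more the sign turned with no call either way: Cd68 between the TAM groups when rescaled (-0.049), and Csf2ra in cKO-labelled TAM against resident macrophages under median-of-ratios scaling (-0.013) and without resident replicate 3 (-0.0086). With libraries rescaled to a common total, Csf2ra in control TAM against resident macrophages turned to 0.048, Adgre1 there went to -0.046, and Csf2ra went to 0.11 between the TAM groups and to 0.16 in cKO-labelled TAM against resident macrophages. With quantile normalization, which gives each rank the same value in every library, Lyz2 in control TAM against resident macrophages turned to 0.073. Lyz2 ranked 1 in the libraries of these groups except resident replicate 1, where it ranked 2. In the same comparison Adgre1 went to -0.018. Cd68 between the TAM groups went to 0.10, and Csf2ra in cKO-labelled TAM against resident macrophages turned to -0.12. Voom on recovered reads gave -0.037 and 0.13 for Csf2ra in control and in cKO-labelled TAM against resident macrophages. Apart from the rank effect on Lyz2, the cause was not tested.

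A 2-fold limit left 1883, 147 and 1683 called genes in control TAM against resident, cKO-labelled against control TAM and cKO-labelled TAM against resident. No call of the 8 genes was lost when any 1 library was left out. With the replicate number as a block the counts were 8396, 4342 and 8437 and no call of the 8 changed. Same-numbered libraries had correlations of -0.0612 to 0.111, so they share only a number. Depth limits Csf1 most, which rests on 44 to 79 reads in resident libraries.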
